A study of Ovis aries with 60 samples.

Results

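Keratins are the filament proteins of epithelial cells. Each filament is built from a type I and a type II keratin in pairs, and the pair that is made marks the kind of epithelium. Stratified squamous lining, as in the mouth, esophagus and lower genital tract, makes KRT5 in its basal layer and KRT4 with KRT13 in the layers above, while simple and glandular epithelium makes KRT8 with KRT18 and often KRT7 and KRT19. Semen can carry cells shed from such linings besides sperm. Messenger RNA of 8 such genes was examined in semen of 20 F2 rams, namely KRT4, KRT78 and KRT5 (3 stratified keratins), KRT7, KRT8, KRT18 and KRT19 (4 simple keratins) and KRT80, a type II keratin found at desmosomes. The genes were taken by name from the 28525 rows of the gene count table, which holds 39 keratin rows, and all 8 were present. They were chosen with earlier results of these data known.

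The rams were grandsons of 10 Polypay F0 sires, 5 given extra methionine, a methyl donor, from weaning to puberty and 5 fed the control diet. The methionine line (n = 10) and the control line (n = 10) each hold 2 rams per F0 sire. Ewes were untreated, and both later generations ate the control diet, so that the lines are set apart by the diet of the paternal grandsire and by the grandsires themselves. By the study's account each treated sire was the twin of a control sire. The labels do not name the pairs, and the main fit leaves them out. A single F1 son of each F0 sire was used for breeding, so that the 2 rams of a sire share a father and are not independent. The labels give no ages. Semen was taken by electroejaculation, and pelleted cells were treated with a lysis buffer against somatic cells before RNA extraction. Each ram was sequenced on its own, and levels are CPM, the count of a gene relative to the library total after TMM scaling. Libraries are called by their label, which holds the ram number and T for the methionine line or C for the control line.

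The gene counts summed to between 805831 in SpermRNA413C and 13137757 in SpermRNA468C, with a median of 3436940, and no pair of libraries was alike within counting noise. The libraries SpermRNA382T (1361691 counts) and SpermRNA485C (2708013 counts) stood apart from the other 18. Transcripts of late spermatids, which sperm retain, were measured in all libraries, and the 18 listed genes of this kind found in the table summed to 9935 CPM in SpermRNA382T and 9802 CPM in SpermRNA485C, against 243 to 6907 CPM in the other rams. PRM1, the protamine that packs sperm DNA, reached 1484 CPM in SpermRNA485C and had a median of 134 CPM. The cornified envelope is the protein shell of differentiated squamous cells. The 19 genes listed for it and for other products of such cells summed to 414 and 314 CPM in SpermRNA382T and SpermRNA485C. In the other rams they summed to 6541 to 157124 CPM, and EMP1 had the highest median of the list, 9514 CPM. RHCG, LY6D and CLCA4 were above their medians in both SpermRNA382T and SpermRNA485C and TGM3 in SpermRNA485C, while the rest were below theirs. The semen RNA labelled as sperm thus held abundant transcripts of epithelial genes in 18 of 20 rams. In such bulk samples, fewer cells of a type and less RNA per cell cannot be told apart. Most results that rest on these 2 libraries are given with and without them. The list correlations with library size alone and the genes most alike in rank are given over 20 rams only.

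Of the 8 keratins, 5 were read at 118 CPM or more in 18 rams, and 3 were at 20.1 CPM or less in every ram. KRT4, KRT78, KRT80, KRT7 and KRT19 formed the first set, and KRT5, KRT8 and KRT18 the second. Each set holds stratified and simple keratins. Counts were not corrected for gene length, so that the values compare rams within a gene.

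KRT78, a type II keratin of stratified epithelium, was measured at a lowest level of 60.4 CPM, a median of 7660 CPM and a highest level of 23678 CPM in the methionine line. The corresponding values in the control line were 28.7, 8084 and 35717 CPM. The lowest values of the lines were those of SpermRNA382T and SpermRNA485C, the third lowest of all rams was SpermRNA413C at 1347 CPM, and the lines overlapped over nearly the whole range.

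KRT4, the type II keratin of the suprabasal layers of non-keratinizing mucosa, ranged from 31.0 to 9115 CPM in the methionine line, with a median of 3371 CPM. In the control line it ranged from 10.1 to 20490 CPM, with a median of 2344 CPM. SpermRNA382T and SpermRNA485C were again lowest, and SpermRNA468C of the control line was highest.

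KRT80 lay between 19.6 and 2176 CPM in the methionine line (median 1249 CPM). In the control line it lay between 8.95 and 3991 CPM (median 589 CPM). The lowest value apart from SpermRNA382T and SpermRNA485C was 201 CPM in SpermRNA413C.

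Among the simple keratins, KRT7, a type II keratin of ducts and glands, had a lowest level of 22.0 CPM, a median of 491 CPM and a highest level of 1581 CPM in the methionine line. The control line gave 7.58, 435 and 1350 CPM. KRT19, a type I keratin of ducts that is also known from the basal layer of moist stratified lining, had 23.9, 2915 and 5061 CPM in the methionine line and 12.4, 2186 and 7262 CPM in the control line. Both genes were lowest in SpermRNA382T and SpermRNA485C, and the lines overlapped.

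**Figure D1:**
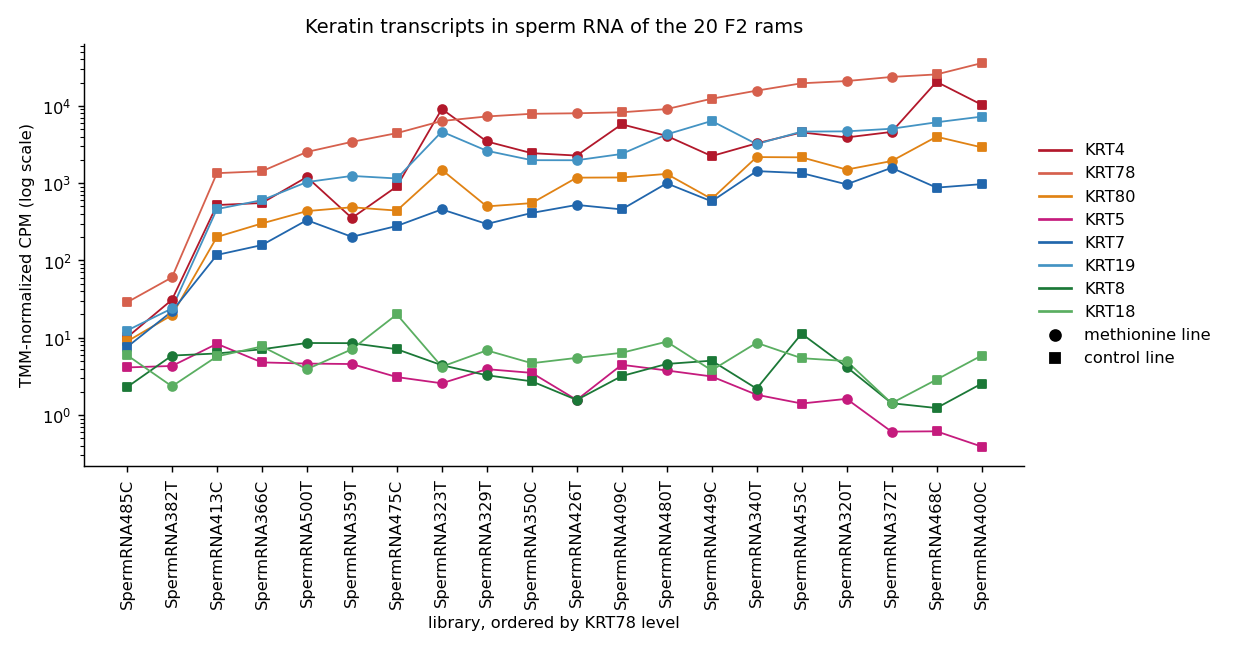
TMM-normalized CPM on a log axis (vertical) of the 8 keratins in each of the 20 F2 rams (horizontal, ordered by KRT78), with circles for the methionine line and squares for the control line. KRT4, KRT78, KRT80, KRT7 and KRT19 are lowest in SpermRNA485C and SpermRNA382T and higher in all other rams, whereas KRT5, KRT8 and KRT18 stay at or below 20.1 CPM.

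KRT5, the type II keratin of basal squamous cells, had only 2 to 29 reads per library, and reached 15 counts in 5 rams. Its level was 0.610 to 4.64 CPM in the methionine line (median 3.18 CPM) and 0.392 to 8.35 CPM in the control line (median 3.34 CPM). KRT8, the type II keratin of simple epithelium, had 2 to 56 reads, and reached 15 counts in 9 rams. Its level was 1.42 to 8.56 CPM in the methionine line (median 4.30 CPM) and 1.23 to 11.3 CPM in the control line (median 4.12 CPM). The lines overlapped for both genes.

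KRT18, the type I partner of KRT8, had 6 to 110 reads and reached 15 counts in 12 rams. It ranged from 1.42 to 8.90 CPM in the methionine line (median 5.24 CPM) and from 2.88 to 20.1 CPM in the control line (median 5.81 CPM). The highest value, in SpermRNA475C, stood clear of all others, the next being 8.90 CPM in SpermRNA480T. In mammals KRT8 and KRT18 have many processed copies in the genome, and the counting used takes reads with a single alignment, so that these counts are uncertain.

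For comparison, 6 keratins of the inner root sheath of hair (KRT25 to KRT28, KRT71 and KRT74), chosen after their values were seen, had 0 to 38 reads per library. The count of KRT5 exceeded those of all 6 in 4 of 20 rams, that of KRT8 in 10 rams and that of KRT18 in 14 rams. The counts of KRT4, KRT78, KRT80, KRT7 and KRT19 did so in all 20 rams. The reads of KRT5 thus lay in the range of those of hair keratins, again without a correction for length. Over 20 rams KRT5 also followed the mean log2 CPM of these 6 genes (r = 0.80). That mean ran opposite to KRT78 (r = -0.60) and to the rest of the abundant set (r = -0.60 to -0.49).

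**Figure D2:**
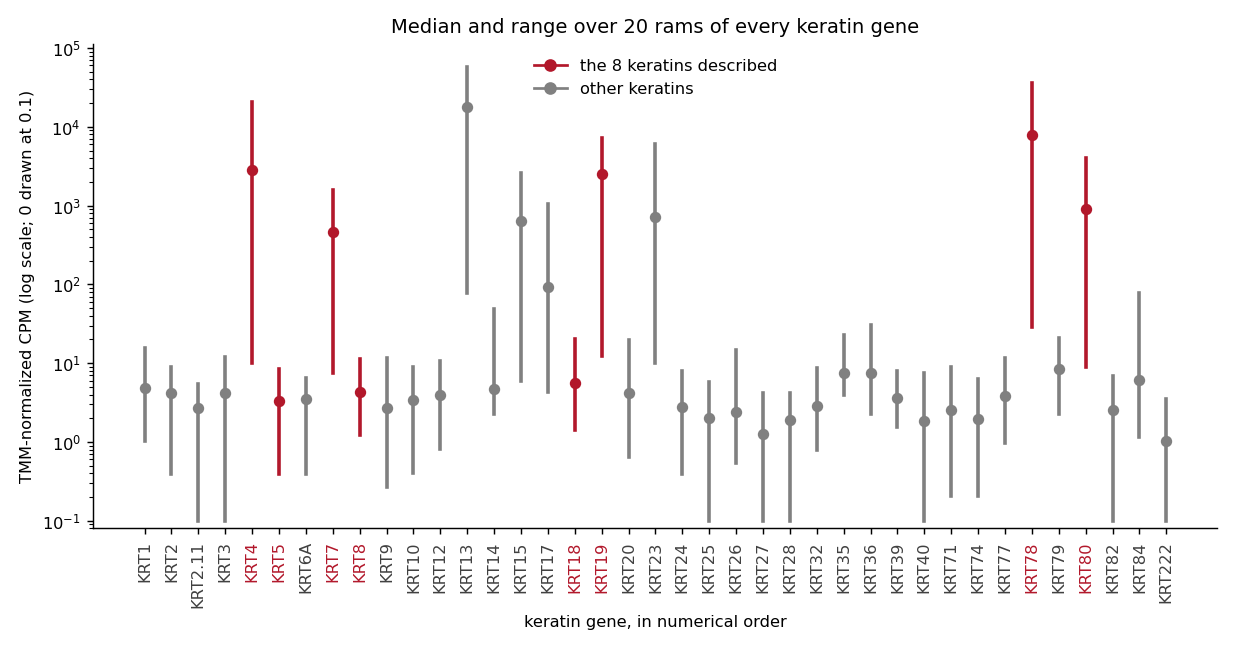
Median (point) and range (bar) over 20 rams of TMM-normalized CPM, on a log axis, for the 39 keratin rows in numerical order, with the 8 keratins described in red and values of 0 drawn at 0.1. KRT4, KRT7, KRT13, KRT15, KRT19, KRT23, KRT78 and KRT80 span wide ranges with medians of 458 CPM or more, while KRT5, KRT8 and KRT18 resemble most other keratins. Values are per gene and not per length.

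Together the 8 keratins took up a median of 1.67% of all gene counts. The share was 0.0129% in SpermRNA485C (Wilson 95% interval 0.0116% to 0.0143%, for counting error alone) and 0.0317% in SpermRNA382T. It was 0.522% in SpermRNA366C, the next in order, and highest in SpermRNA449C at 2.42%. KRT5, KRT8 and KRT18 together never exceeded 0.00511%.

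From ram to ram, the TMM-scaled levels of the abundant set varied more than those of most genes. The SD of log2 CPM over 20 rams was 2.69 for KRT78, 2.68 for KRT4, 2.48 for KRT19, 2.21 for KRT80 and 1.95 for KRT7, which exceeded the SD of 95.5% to 99.8% of the 13577 genes tested. Without SpermRNA382T and SpermRNA485C the SDs fell to between 1.11 for KRT7 and 1.57 for KRT4, at percentiles of 76.8 and 96.2. These spreads depend on the scaling. In the rams other than these libraries, the TMM-scaled level of KRT78 ran from 1347 to 35717 CPM. Its share of all gene counts, which uses no TMM, ran only from 0.243% in SpermRNA366C to 1.53% in SpermRNA320T. The percentiles are for TMM-scaled levels alone. For KRT5, KRT8 and KRT18 the SDs were 0.88, 0.80 and 0.71 over 20 rams, at percentiles of 47.9, 38.6 and 27.8. With library size alone in place of TMM they were larger, at 1.41, 1.29 and 1.12.

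The abundant keratins varied together. As a description over 20 rams, the Pearson correlation of log2 CPM among the 10 pairs of KRT4, KRT78, KRT80, KRT7 and KRT19 was 0.92 to 0.98. Over the 18 rams without SpermRNA382T and SpermRNA485C it was 0.74 to 0.93, and with library size alone in place of TMM it was 0.30 to 0.75 over the same 18 rams. The scaling is shared by all genes of a library, and its factors fell with the total count (r = -0.85). The closest pair was KRT78 with KRT19 (r = 0.98 over 20 rams and 0.93 over 18), a stratified with a simple keratin. The classical split was not mirrored in the abundant set. KRT4 with KRT78 had r = 0.95 and KRT7 with KRT19 had r = 0.96, beside 0.92 to 0.98 across the groups. With KRT5, KRT8 and KRT18 included, pairs ran from -0.61 to 0.95 within the stratified group and from -0.18 to 0.96 within the simple group. Pairs across the groups then ran from -0.60 to 0.98. These low ends involve KRT5 or KRT8, which had few reads, and so do not bear on the split.

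KRT5, KRT8 and KRT18 did not follow the others. Their 15 correlations with the abundant set were -0.63 to 0.01 over 20 rams and -0.87 to -0.34 over 18. KRT5 was lowest, at 0.392 CPM (2 reads), in SpermRNA400C, which had the highest KRT78 level. These are sparse counts, and KRT5 also fell with the total count of the library (r = -0.74 over 20 rams and -0.73 over 18). KRT78 rose with this total (r = 0.55 and 0.71), as did the other abundant keratins (0.51 to 0.59 over 20 rams and 0.61 to 0.76 over 18). With library size alone in place of TMM, the abundant set had lower values, 0.27 to 0.38 over 20 rams. Under that scaling KRT5, KRT8 and KRT18 all fell with the total (r = -0.81, -0.62 and -0.57). The part of the library total in these relations was not tested. The lowest totals were those of SpermRNA413C (805831 counts) and SpermRNA426T (1082165 counts), which had KRT78 at 1347 and 8023 CPM.

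Filament partners were compared next. KRT13, the type I partner of KRT4, ranged from 78.0 to 57938 CPM and correlated with KRT4 at 0.97 over 20 rams (0.89 over 18) and with KRT78 at 0.99 (0.96 over 18). KRT15, a type I keratin of basal cells, ranged from 5.97 to 2605 CPM and followed KRT19 (r = 0.97 and 0.91). The partners of KRT5 differed, as KRT15 ran opposite to it (r = -0.60 and -0.79) and KRT14, the usual basal partner, did not follow it (r = 0.04 and 0.06). Since the hair keratins also ran opposite to the abundant set, the opposite course of KRT5 is not read as particular to a basal keratin. KRT14 was at a median of 4.66 CPM and reached 49.1 CPM only in SpermRNA323T. KRT8 and KRT18 had r = 0.33 and 0.42 with TMM, but with library size alone the 3 pairs among KRT5, KRT8 and KRT18 had r of 0.73 to 0.84 over 20 rams and 0.79 to 0.85 over 18. KRT7 and KRT19 were related at 0.96 and 0.85.

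KRT13 and KRT15, like KRT14, were listed under gene identifiers and were named through the RefSeq gene table. In the gene order of that table, which is of another assembly, KRT18, KRT8 and KRT78 are direct neighbours. KRT4 lies between KRT79 and KRT3, KRT5 between KRT71 and KRT6A, and KRT19 between KRT15 and KRT9. The neighbours KRT78 and KRT8 differed in their range, as the highest CPM was 1245 times the lowest for KRT78 (26.5 times without SpermRNA382T and SpermRNA485C) and 9.16 times for KRT8 with or without these libraries. Their correlation was -0.22 over 20 rams and -0.57 over 18, whereas the neighbours KRT19 and KRT15 varied together, as given above.

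The remaining keratins that were measured well enough for a test number 14 of 31. With KRT13 and KRT15, KRT23 (10.1 to 5965 CPM) had a correlation with KRT78 over 0.9 across 20 rams, and these were the 3 that did. Over the 18 rams without SpermRNA382T and SpermRNA485C the values were 0.96 for KRT13, 0.91 for KRT15 and 0.76 for KRT23. KRT17, a keratin of stressed and regenerating epithelium, ranged from 4.32 to 1060 CPM with its highest value in SpermRNA323T (r = 0.62 with KRT78, and 0.38 over the 18 rams). The low rows KRT79, KRT36 and KRT35 had correlations of 0.65, 0.62 and 0.50 with KRT78 (0.53, 0.50 and 0.65 over 18) and medians of 8.49, 7.49 and 7.47 CPM. KRT20 was at a median of 4.24 CPM (r = 0.11, and 0.34 over 18), and KRT3 at 4.21 CPM (r = -0.11, and -0.38 over 18). KRT1, KRT2 and KRT77 were at medians of 4.78, 4.23 and 3.88 CPM, with correlations of -0.69, -0.58 and -0.58 (-0.70, -0.58 and -0.67 over 18). KRT84, a hair keratin, ran opposite to KRT78 (r = -0.73, and -0.60 over 18), and was at 77.1 CPM in SpermRNA359T, 36.1 CPM in SpermRNA382T and 45.9 CPM in SpermRNA485C against a median of 6.16 CPM. The 17 keratins below the filter had 0 to 44 reads per library, and 16 of them had a negative correlation with KRT78.

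Relations between single members were then read from counts within a library, which need no scaling. KRT4 relative to KRT78 had a log2 SD of 0.88 over 20 rams and 0.91 over 18, with 0.103 KRT4 reads per KRT78 read in SpermRNA359T, a median of 0.330 and 1.43 in SpermRNA323T. Both extremes are rams of the methionine line, whose log2 ratio was -1.59 ± 1.06 (SD, n = 10), against -1.54 ± 0.70 (SD, n = 10) in the control line. The ratio of KRT13 to KRT78 stayed within 1.33 to 3.46, and that of KRT19 to KRT78 within 0.203 to 0.728. The ratio of KRT7 to KRT78 was 0.364 in SpermRNA382T and 0.264 in SpermRNA485C, above the range of 0.0272 to 0.131 in the other 18 rams, and its log2 SD was 0.91 over 20 rams and 0.60 over 18. KRT80 relative to KRT78 was likewise highest in SpermRNA382T and SpermRNA485C, at 0.325 and 0.312, against 0.0505 to 0.234 elsewhere.

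Rams of the same F0 sire ranged from nearly equal to far apart in the ratio of KRT4 to KRT78. The log2 ratio was -1.08 and -1.15 in SpermRNA500T and SpermRNA480T of sire 3, and -1.37 in both SpermRNA413C and SpermRNA366C of sire 12. It was -0.32 and -2.29 in SpermRNA468C and SpermRNA475C of sire 10, and 0.52 and -1.07 in SpermRNA323T and SpermRNA329T of sire 23. The median difference was 0.65 between the 10 pairs of one sire and 0.94 between the 80 pairs of different sires in the same line, and the ranges overlapped (0.00 to 1.97 and 0.00 to 3.79), a difference that was not tested. For the level of KRT78 the corresponding median differences in log2 CPM were 1.98 and 1.70, whereas for KRT4 they were 1.58 and 2.12. The median difference was smaller within sires for KRT80, KRT7, KRT5, KRT8 and KRT18 too and larger for KRT19, none of which was tested.

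**Figure D3:**
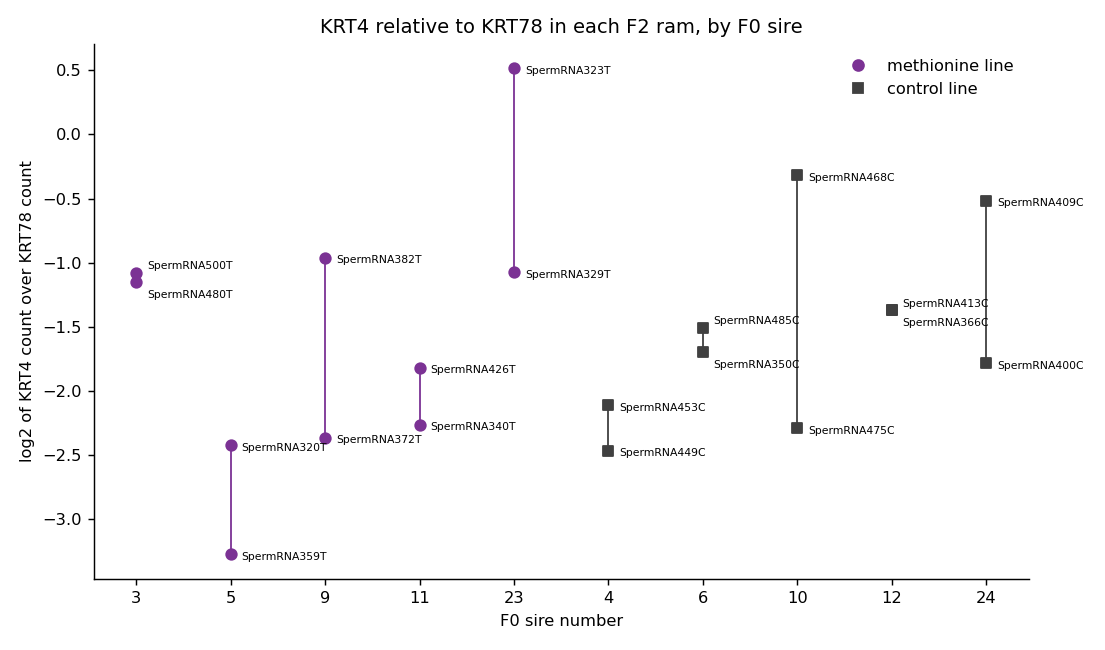
Log2 of the KRT4 count over the KRT78 count (vertical) for each F2 ram, placed by F0 sire number (horizontal) with the rams of a sire joined, circles for the methionine line and squares for the control line. The values run from -3.27 in SpermRNA359T to 0.52 in SpermRNA323T, and SpermRNA413C and SpermRNA366C coincide at -1.37.

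The sum of the stratified keratins was 1.52 times that of the simple keratins in SpermRNA485C, 1.77 times in SpermRNA382T, and 2.10 to 6.56 times in the other rams, in units of reads. Since KRT5, KRT8 and KRT18 added few reads, this is in effect KRT4 and KRT78 against KRT7 and KRT19. The median was 3.34 in the methionine line and 3.84 in the control line, and the ranges overlapped (1.77 to 4.40 and 1.52 to 6.56).

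To relate the keratins to the makeup of the libraries, each was correlated with the mean log2 CPM of 5 marker lists over 20 rams (40 pairs, two-sided permutation test with 100000 resamples, Benjamini-Hochberg adjustment over the 40). Members and lists were chosen with earlier results of these data known, so the p-values are no independent support. The 5 abundant keratins rose with the lists for the cornified envelope, the desmosome and glandular epithelium and fell as the spermatid list rose. Of the 40 pairs, 28 passed an adjusted p of 0.05 for Pearson's r, and 24 or more did so without SpermRNA382T and SpermRNA485C, without the 2 rams farthest from the median of each list, or with a smaller prior count. With library size alone 19 passed by r, among them KRT5, KRT8 and KRT18 with the spermatid list, which did not pass in the main setting. By rho under that scaling, 3 pairs passed with the cornified envelope list and 5 with the spermatid list. With the desmosome, glandular and leukocyte lists 0 did. Genes other than the members were not tested against these lists, so the counts have no share over all genes beside them and are not read as particular to keratins.

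With the cornified envelope list, which includes involucrin, envoplakin and small cornified proteins, r was 0.93 to 0.98 and rho 0.84 to 0.95 for the abundant set (adjusted p = 3.64e-05 and 4.44e-05, permutation test, from the smallest p that the resamples can give). Leaving out SpermRNA382T and SpermRNA485C, which were also the rams farthest from the list median, r was 0.78 for KRT7 and 0.93 for KRT4, with the other 3 between (adjusted p at most 0.000733). With library size alone rho was 0.47 to 0.91 for the abundant set, and those of KRT78 (0.55, adjusted p = 0.0507) and KRT7 (0.47, adjusted p = 0.107) did not pass, while all 5 values of r did. KRT5 ran opposite (r = -0.64, rho = -0.80, adjusted p = 0.00451 and 0.000171), but with library size alone its r was -0.47 (adjusted p = 0.0669). KRT8 and KRT18 did not pass (r = -0.28 and -0.04), though KRT8 did over the 18 rams (r = -0.57, adjusted p = 0.0333).

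With the desmosome list (13 genes of cell adhesion, such as desmoplakin), r was 0.74 to 0.88 for the abundant set, 0.56 to 0.88 without SpermRNA382T and SpermRNA485C, and 0.79 to 0.92 without the 2 rams farthest from the list median, SpermRNA323T and SpermRNA485C. With library size alone KRT4 alone of these passed, and the values fell to 0.33 to 0.56. By rho none of them passed under that scaling, with KRT4 at an adjusted p of 0.0571 and KRT78 at a rho of -0.04. KRT5 had r = -0.56 (adjusted p = 0.0166), which turned to 0.19 with library size alone.

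With the glandular epithelium list (10 of 12 genes passing the filter, such as the claudins and E-cadherin), r was 0.91 to 0.96 for the abundant set, 0.72 to 0.91 over the 18 rams, and 0.82 to 0.88 over 20 rams with library size alone. The rank correlations under library size alone were lower, 0.12 to 0.53, and none passed. KRT5 ran opposite (r = -0.52, adjusted p = 0.0274, permutation test, and r = -0.68 over the 18 rams). With library size alone its r was -0.13 (adjusted p = 0.659). The members of this list did not all run alike. CLDN4, a claudin that squamous lining also makes, had a median of 641 CPM over 20 rams and was at 14.1 CPM in SpermRNA382T and 4.82 CPM in SpermRNA485C. WFDC2, CLDN3, CLDN7, MUC1, TSPAN1 and CDH1 were likewise far below their medians in both libraries, as with WFDC2 at 0 and 3.67 CPM against a median of 100.1 CPM and MUC1 at 14.5 and 36.5 CPM against 1349 CPM. The other members that passed the filter were PAX8, CDH16 and EPCAM. PAX8 and CDH16, which are more particular to ducts and glands, had medians of 7.31 and 4.37 CPM. PAX8 was at 12.9 CPM in both SpermRNA382T and SpermRNA485C, and CDH16 was highest of all rams in SpermRNA382T and at 10.6 CPM in SpermRNA485C, so that these were not low there. EPCAM had a median of 10.4 CPM, with 11.8 and 6.43 CPM in these libraries. The balance between stratified and simple keratins also moved with the lists. As a description, the log2 ratio of the stratified to the simple sum correlated with the cornified envelope list at 0.82 over 20 rams and 0.66 over 18, and with the glandular list at 0.72 and 0.43. The ratio of KRT7 to KRT78 ran opposite, at -0.83 and -0.55 with the cornified envelope list and -0.78 and -0.34 with the glandular list.

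With the spermatid list (15 genes passing the filter), r was -0.85 for KRT4 and -0.70 to -0.76 for KRT78, KRT80, KRT7 and KRT19, with adjusted p of at most 0.00078. Without SpermRNA382T and SpermRNA485C, the value was -0.80 for KRT4 (adjusted p = 0.000267) and -0.47 for KRT7 (adjusted p = 0.0819). The rank correlation was -0.82 to -0.53 for the abundant set over 20 rams, where all 5 passed, and over the 18 rams KRT4 alone passed by rho (-0.75, adjusted p = 0.00197), the others having adjusted p of 0.0757 to 0.218. Under library size alone all 5 passed by r, but by rho KRT78 (-0.55, adjusted p = 0.0507), KRT80 (-0.43, adjusted p = 0.146) and KRT7 (-0.39, adjusted p = 0.177) did not. KRT5, KRT8 and KRT18 had r = 0.43, 0.40 and 0.20 and did not pass, whereas with library size alone they had 0.75, 0.73 and 0.67 and did. Over the 18 rams KRT8 passed (r = 0.55, adjusted p = 0.0352).

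With the leukocyte list, all 17 genes of which passed the filter, r was 0.50 to 0.60 for the abundant set (adjusted p = 0.00862 to 0.0363), but rho was 0.18 to 0.32 and did not pass. Without SpermRNA382T and SpermRNA485C r was -0.11 to 0.09, so that this relation rests on those 2 rams. Without the 2 rams farthest from the list median, SpermRNA350C and SpermRNA485C, r was 0.40 to 0.53, and KRT19 alone passed (adjusted p = 0.036). Leukocyte transcripts peaked in SpermRNA350C, whose 17 genes summed to 25659 CPM, whereas KRT78 was at 7903 CPM there.

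**Figure D4:**
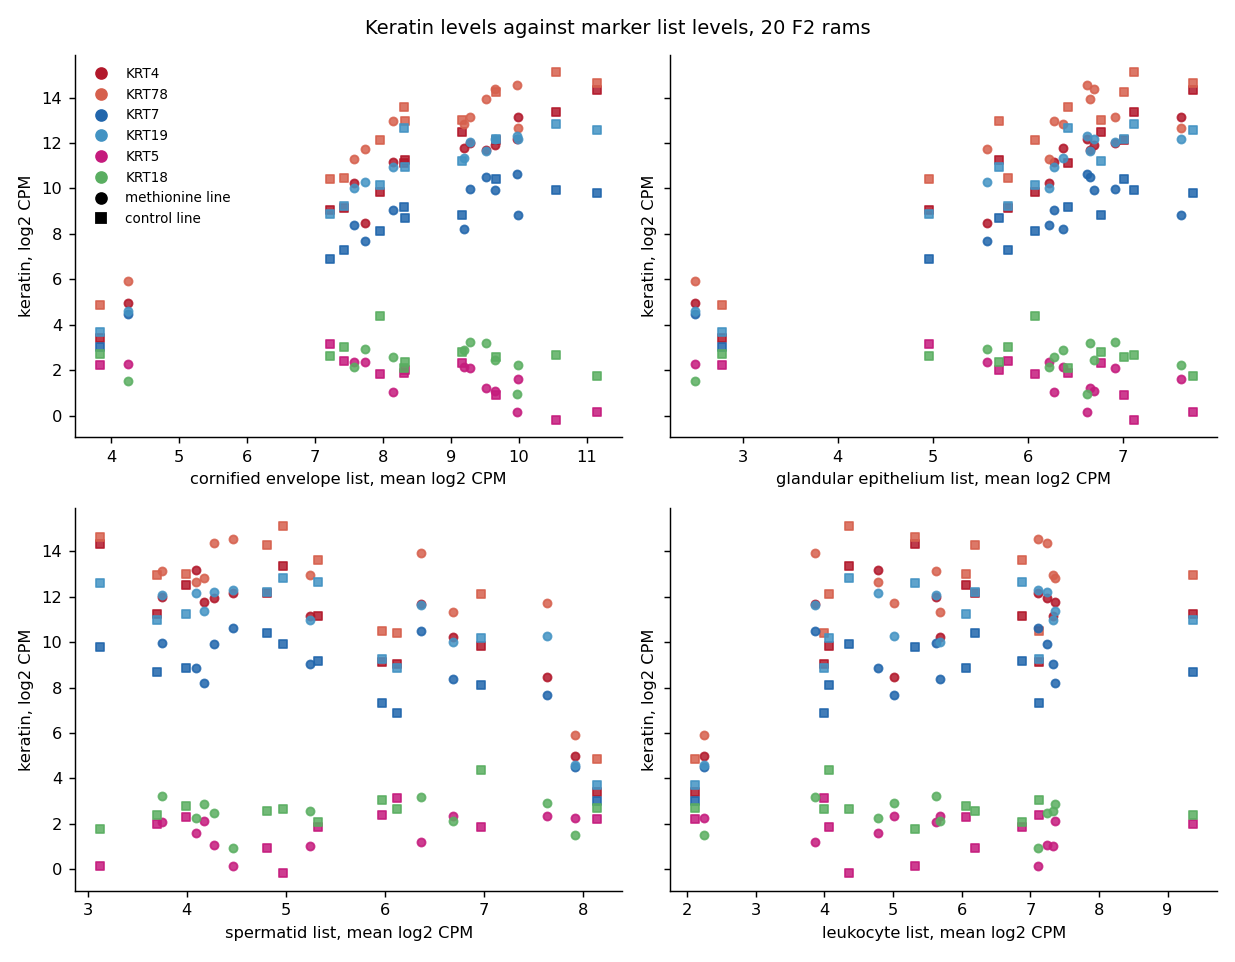
Log2 CPM of 6 keratins (vertical) against the mean log2 CPM of 4 marker lists (horizontal) in 20 F2 rams, with circles for the methionine line and squares for the control line. SpermRNA382T and SpermRNA485C lie apart at low epithelial and leukocyte levels. They have the highest spermatid levels (7.92 and 8.15), with SpermRNA359T close to them on that axis (7.64). Among the other 18 rams KRT4, KRT78, KRT7 and KRT19 rise with the epithelial lists while KRT5 and KRT18 stay low.

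For each member that passed the filter, which leaves out KRT5 and KRT8, the genes most like it in rank over the 20 rams were named by rule. They were drawn from 13571 genes that are no member. For KRT4 these were CIB2 (rho = 0.98), the membrane-binding annexin ANXA2 (0.97) and EPS8L1 (0.97). For KRT78 they were MAP1LC3A, an autophagy protein (0.98), HIVEP2 (0.98) and VPS4B (0.98). For KRT80 they were SPINT1, an inhibitor of epithelial serine proteases (0.99), LOC114108790 (0.98) and TPRG1 (0.98). For KRT19 they were LOC101107957 (0.98), FAM110A (0.97) and MARK4 (0.97). KRT7 was followed by LPIN2 and TPCN1 (0.95 each) and RPS19BP1 (0.94). Likeness was common, as 0.70% of genes for KRT7 and 1.94% to 4.05% for the other 4 had a rho of at least 0.9. For KRT18 no gene reached 0.9, and its nearest, C9H8orf37, LOC114115851 and EFCAB8, had 0.69, 0.67 and 0.66.

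The comparison between lines asked whether the diet of the grandsire went with the level of these transcripts in the semen RNA of the F2 rams. No member passed the test. With edgeR's quasi-likelihood test, 0 of the 6 members that passed the filter were called at an adjusted p of 0.05 (0% of the 13577 genes tested were called), and 0 had an unadjusted p under 0.05 (0.766% of genes did, or 104). DESeq2 and limma-voom also called 0 members and 0 genes, with 174 and 40 genes at an unadjusted p under 0.05.

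The log2 fold change between the methionine and control lines was -0.57 ± 0.89 (SE) for KRT4, with a 95% interval of -2.40 to 1.27. It was -0.26 ± 0.89 for KRT78 (interval -2.09 to 1.56) and -0.17 ± 0.76 for KRT80 (interval -1.73 to 1.40). By mean log2 CPM the methionine line was instead the higher for all of these genes. The values were 10.75 against 10.61 for KRT4, 12.34 against 12.14 for KRT78 and 9.47 against 9.11 for KRT80. The adjusted p was 0.9998 for each of the 6 members tested, in edgeR's test. For KRT4 the interval spans 0.189 to 2.41 times the control level of KRT4.

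Of the simple keratins, KRT7 had a log2 fold change of 0.39 ± 0.69 (interval -1.04 to 1.81), KRT19 of -0.11 ± 0.80 (interval -1.75 to 1.53) and KRT18 of -0.36 ± 0.35 (interval -1.08 to 0.36). The KRT18 value rests on SpermRNA475C, without which it was 0.01. KRT5 and KRT8, too low for the filter, had -0.09 ± 0.40 and -0.11 ± 0.38 in a fit of all genes with any count. The 6 members had a median of -0.21, beside -0.05 over all genes tested. KRT19 too had the higher mean log2 CPM in the methionine line, at 10.76 against 10.44. For KRT4, KRT78, KRT80 and KRT19 the sign of the change depended on the fit, and of the 6 tested members KRT7 alone kept its sign in every fit.

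**Figure D5:**
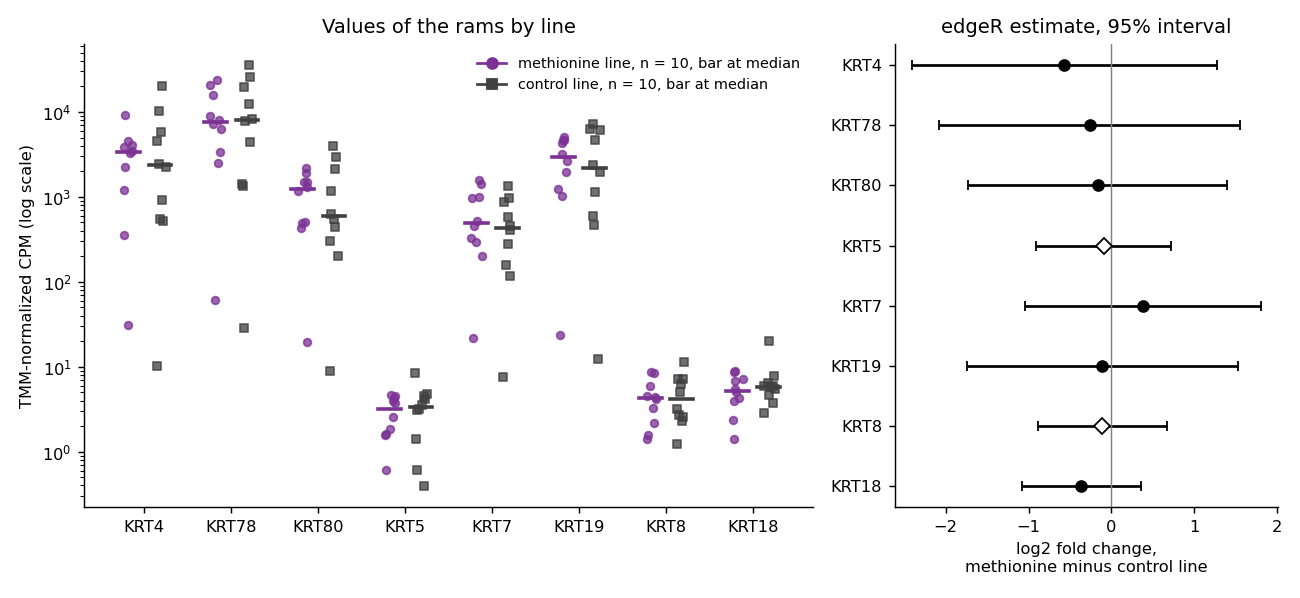
Left, TMM-normalized CPM on a log axis of the 8 keratins in the 10 rams of each line with a bar at the median. Right, log2 fold change between the methionine and control lines by edgeR with its 95% interval, filled for the members that passed the filter and open for KRT5 and KRT8, which come from the fit without a filter. The lines overlap for every keratin, and every interval includes 0.

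Neither were related gene groups called between the lines. Of the 14 other keratins tested, 0 were called and 0 had an unadjusted p under 0.05, with log2 fold changes from -0.28 for KRT13 to 0.85 for KRT17. Of these 11 were higher and 3 lower in the methionine line (median 0.12), whereas of the 6 members tested 1 was higher and 5 lower by the fit. By mean log2 CPM over the rams, KRT18 alone of the 6 was lower in the methionine line. Of the 17 cornified envelope genes, 7 were higher and 10 lower in the methionine line, with a median log2 fold change of -0.31. The level of the list per ram pointed the other way, as its summed CPM had a median of 32357 in the methionine line and 18320 in the control line, with overlapping ranges. Of the 13 desmosome genes 8 were higher and 5 lower (median 0.19), and of the 10 glandular genes 5 and 5 (median -0.03). Of 15 regulators of epithelial differentiation, such as KLF4 and GRHL3, 11 were higher and 4 lower (median 0.10). Of 7 linkers of keratin filaments, such as plectin and periplakin, 6 were higher and 1 lower (median 0.15). Of 8 basal epithelium genes 7 were higher and 1 lower (median 0.14). Over all genes tested 5814 were higher and 7763 lower. In these lists 1 desmosome and 1 basal epithelium gene had an unadjusted p under 0.05, and neither was called.

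Genes of other cell types were not called between the lines either. Urothelium genes numbered 1 higher and 2 lower (median -0.06), other intermediate filament genes 1 and 4 (median -0.10), stroma and vessel genes 1 and 4 (median -0.29) and Sertoli cell genes 0 and 4 (median -0.33). Spermatid genes numbered 12 higher and 3 lower (median 0.19), and leukocyte genes 1 higher and 16 lower (median -0.66), of which 0 were called. The spermatid level per ram pointed the other way. Its summed CPM had a median of 970 in the methionine line and 1099 in the control line, and its mean log2 CPM medians of 4.86 and 5.15. The leukocyte sum had a median of 1871 CPM in the methionine line (92.6 to 5931 CPM) and 3082 CPM in the control line (86.1 to 25659 CPM). As the mean log2 CPM of the list, the median was 5.65 in the methionine line and 5.69 in the control line, so that the lower fitted values were not seen on that scale, and no gene of the list was at 0 in every ram. The part of library makeup in the values between lines was examined with the spermatid list as a covariate, which also called 0 members and left KRT4 at 0.12.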

How the data were processed

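Per the study's methods, RNA reads were trimmed with Trimmomatic, aligned to Oar_rambouillet_v1.0 with STAR and counted per gene by the authors, and the deposited values are raw counts. The strand setting is not given in the sources used here. A gene was kept where over 10 rams had 15 or more counts, which left 13577. The study states the same filter and reports a larger number of expressed genes, and the reason for the difference was not tested. Counts were scaled by TMM, and the lines were compared with the quasi-likelihood test of edgeR 4.0.16 with Benjamini-Hochberg adjustment (R 4.3.3). Alternatives used DESeq2 1.42.0 and limma 3.58.1, and correlations SciPy 1.17.1. Log2 CPM used a prior count of 2. The tests were tried on simulated data. Of 10441 rows listed by gene identifier, 406 received another symbol from the RefSeq table, 3 of them keratins. Named genes were the 8 members, every other keratin that passed the filter, genes of short lists, and the 3 genes most alike in rank to each member that passed it. The marker lists come from general knowledge of these cell types, and the members, lists and rules were chosen with earlier results of these data known. DNA methylation at the keratins was not analysed here. The total of a library is the sum of its gene counts. These totals span a far wider range than the reads sequenced per library that the study reports, so they are not sequencing depth. The p-values cover rams that share sires.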

Additional observations from a re-analysis of the deposited data

Results flagged for a closer look

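In each line the lowest ram lay far from the others. Of 16 groups of 10 rams (8 keratins in each of the 2 lines), 10 had an extreme ram past Dixon's 95% limit for 10 values. The limit is on the gap of that ram to its neighbour as a share of the range in log2 CPM. For independent groups chance gives about 1 in 20, but the abundant keratins varied together, so these groups are not independent. No share over all genes was computed, and the count is not read as particular to keratins. SpermRNA485C of the control line was low for KRT4 (3.405), KRT78 (4.87), KRT80 (3.24), KRT7 (3.01) and KRT19 (3.69). SpermRNA382T of the methionine line was low for KRT78 (5.93), KRT80 (4.33), KRT7 (4.49) and KRT19 (4.61). These 9 are the same 2 libraries, in which the spermatid list was at its highest. KRT4 in SpermRNA382T was the lowest of its line but did not pass the limit. SpermRNA475C of the control line was high for KRT18 (4.36), with 110 reads against at most 47 in any other ram.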

How the results depend on the processing

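Under all 31 alternatives 0 genes and 0 members were called between the lines. The sign of the log2 fold change turned in these cases, none past the threshold. With limma-voom it was 0.066 for KRT4, 0.068 for KRT78, 0.30 for KRT80 and 0.15 for KRT19. With limma-voom and F0 sire as a correlated block it was 0.093, 0.093, 0.32 and 0.18, and with the spermatid list as a covariate 0.12, 0.11, 0.42 and 0.11. With library size alone it was 0.15 for KRT80 and 0.030 for KRT19, and with counts summed by sire 0.13 for KRT19. The cause was not tested. Leaving out each ram in turn gave -0.89 to 0.088 for KRT4 (positive without SpermRNA468C), -0.51 to 0.11 for KRT78 (positive without SpermRNA400C), -0.33 to 0.24 for KRT80 (positive without SpermRNA382T, SpermRNA400C or SpermRNA468C), -0.26 to 0.12 for KRT19 (positive without any of these or SpermRNA449C) and -0.47 to 0.0067 for KRT18 (positive without SpermRNA475C). KRT7 stayed at 0.16 to 0.67. Without SpermRNA382T and SpermRNA485C, an alternative chosen after seeing the data, KRT4 was at -0.55 and KRT78 at -0.25.

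The study's twin pairs are not named. A replicate block of consecutive F0 sire numbers, a guess that the labels do not give, called 0 genes and left KRT4 at 0.038, KRT78 at 0.15, KRT80 at 0.26 and KRT19 at 0.34.

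For the correlations with lists, 28 of 40 pairs passed by r in the main setting and 28 with a prior count of 1. By r, 25 passed without the 2 farthest rams, 24 without SpermRNA382T and SpermRNA485C and 19 with library size alone. By rho with library size alone, pairs passed only with the cornified envelope list (3) and the spermatid list (5). No share over all genes was computed for these counts. With library size alone r turned to 0.19, 0.25 and 0.19 for KRT5, KRT8 and KRT18 with the desmosome list, to 0.14, 0.10 and 0.055 with the leukocyte list and to 0.028 for KRT8 with the glandular list. Without SpermRNA382T and SpermRNA485C it turned to -0.28 for KRT18 with the glandular list, -0.11 for KRT80 and 0.0049 for KRT5 with the leukocyte list, and without the 2 farthest rams to -0.28 for KRT18 with the glandular list.

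Counting error is largest for KRT5, KRT8 and KRT18, with lowest counts of 2, 2 and 6 reads in a library.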
